A study of Mesocricetus auratus with 6 samples.

Results

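The genes described here encode the machinery of DNA replication and of S phase, in the day 5 pregnant uterus of the golden hamster, Mesocricetus auratus. The list holds 49 genes, and 47 of them were measured, of 12393 genes in all with a probe set of a single gene symbol. Gins2 and Chaf1a had no such probe set. The genes were listed by their known function, but with earlier results of the same comparison in view, and the probe set that stands for each gene was selected on its highest mean over the 6 arrays. Counts over the list are therefore a description and support nothing about the list. RNA of implantation sites, where a blastocyst has attached to the uterine wall, was set against RNA of the interimplantation segments, which hold no embryo. Each group had 3 arrays, and the design text speaks of 3 sets of RNA from 3 animals, with no treatment named. If that number covers both groups, each animal gave RNA to both. The labels do not say so, nor which arrays would belong together, and they give no age for the animals. The implantation samples are labelled as embryo implantation sites and may hold embryonic as well as maternal cells.

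Before S phase, the origin recognition complex, Cdc6 and Cdt1 load the ring of Mcm2 to Mcm7 onto DNA, and geminin blocks a further round of loading. Cyclin E kinase and E2F factors drive entry into S phase, when Cdc45 and the GINS complex turn the ring into a moving helicase and the polymerases copy both strands, held on DNA by the PCNA clamp. In rodents, attachment of the blastocyst is followed by division of the stromal cells beneath it and by their change into decidual cells, many of which copy their DNA without dividing.

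Values are log2 signals of mouse-designed probe sets, made with RMA, a method that makes the distributions of the arrays alike. Mismatches between mouse probes and hamster RNA can lower a signal and shrink a difference, so levels of different genes were not compared, and a gene without a difference is not shown to be unchanged. Array medians over 22626 probe sets ran from 4.55 to 4.57. Arrays correlated over the probe sets, which do not count as independent replicates, at 0.987 to 0.994 within groups and at 0.985 to 0.989 between groups. Of 6 uterine genes (Pgr, Esr1, Hoxa10, Hoxa11, Hand2 and Msx1), 4 had a mean above the brightest of 27 Bacillus control probe sets (5.79). Of the 47 replication genes 6 did (Pcna, Rfc2, Rpa1, Fen1, Rrm1 and Tk1), as did 3294 of all 12393 genes. Among the 6, Pcna and Rpa1 did so only through the implantation arrays and Tk1 only through the interimplantation arrays. The labels do not say whether transcripts for these controls were added. In a piece of tissue, a larger share of dividing cells and more RNA per cell cannot be told apart.

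At the implantation site, 4 of the 47 genes rose: Rrm1, Mcm7, Pcna and Mcm5, by 1.51-fold to 2.03-fold. None fell, and 43 did not pass (limma, adjusted p under 0.05 over all 22626 probe sets). Among all 12393 genes, 1.36% rose and 1.18% fell by the same rule. By unadjusted p under 0.05, 13 members were higher and 0 lower, against 6.14% and 8.67% of all genes. Every implantation array lay above every interimplantation array for 14 members and below for 2 (Orc2 and Tk1), and the same held for 8.02% and 12.1% of all genes. The median difference was 0.11 over the members and −0.02 over all genes, and 33 members were positive, against 43.8% of all genes. Because the list was made with this contrast known, nothing is read from these shares.

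**Figure D1:**
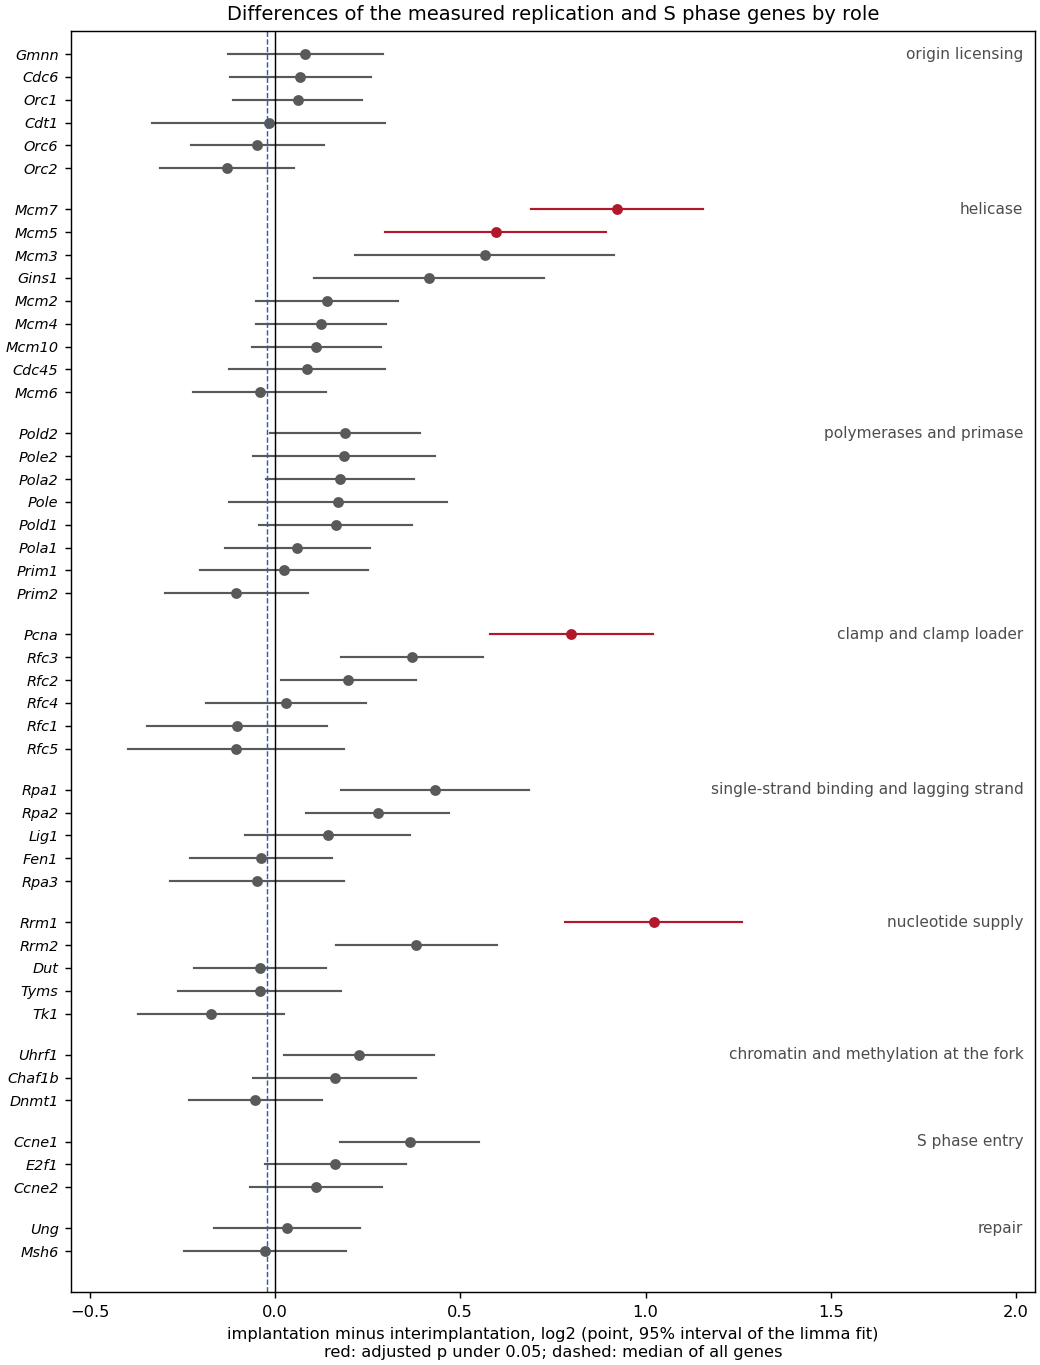
Difference between implantation and interimplantation sites (horizontal axis, log2) for the 47 measured genes, grouped by role, with the 95% interval of the limma fit. Red marks the 4 genes that passed, Rrm1 (1.02), Mcm7 (0.92), Pcna (0.80) and Mcm5 (0.60), and the dashed line marks the median of all genes (−0.02).

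The largest difference was in the supply of DNA building blocks. Rrm1, the large subunit of ribonucleotide reductase, which makes deoxyribonucleotides, read 7.08, 7.19 and 6.87 on implantation arrays 1 to 3 and 5.85, 6.18 and 6.04 on interimplantation arrays 1 to 3. The groups were far apart, with 7.04 ± 0.16 against 6.02 ± 0.17 (SD, n = 3). Rrm1 rose 2.03-fold, by 1.02 on the log2 scale (SE 0.11, adjusted p = 7.09e-04). Its other probe set was at 0.22 with no overlap of the groups and did not pass (adjusted p = 0.220). Rrm2, the small subunit, whose amount limits the enzyme in S phase, read 4.75, 4.90 and 5.08 at the implantation site and 4.44, 4.64 and 4.50 between the sites. The groups did not overlap, but the difference of 0.38 did not pass (adjusted p = 0.0779), and the other probe sets of Rrm2 were at −0.10 and −0.02. Thymidylate synthase Tyms and the dUTPase Dut, which keeps uracil out of DNA, were both at −0.04, with 95% intervals of −0.26 to 0.18 and −0.22 to 0.14. A probe set shared by Tyms and its pseudogene, outside the single-symbol rule, was at 0.35 (adjusted p = 0.0674). Thymidine kinase Tk1, which salvages thymidine, read 5.86, 5.60 and 5.82 at the implantation site and 5.89, 5.94 and 5.97 between the sites. Every implantation value of Tk1 was the lower one, and the difference of −0.17 did not pass (adjusted p = 0.437).

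In the helicase, 2 of 9 measured genes rose and 0 fell, with a median of 0.14. Mcm7 read 5.97, 6.11 and 6.14 on the implantation arrays and 4.92, 5.30 and 5.23 on the interimplantation arrays. It rose 1.90-fold, from 5.15 ± 0.20 to 6.07 ± 0.09 (SD, n = 3), by 0.92 (SE 0.11, adjusted p = 0.00116). The ID of this probe set marks probes that match several transcripts or genes. None of its other 3 probe sets passed, at 0.40, 0.19 and −0.16, so the call of Mcm7 rests on 1 probe set. The groups did not overlap for the probe sets at 0.40 and 0.19, and the implantation values were the higher ones. Over the mean of its probe sets, where fewer features were tested, the difference was 0.34 (adjusted p = 0.0377).

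Mcm5 read 4.42, 4.37 and 4.50 at the implantation site and 4.21, 3.71 and 3.58 between the sites. The implantation values lay close together, and interimplantation array 1 came nearest to them. Mcm5 rose by 0.60 (SE 0.14, adjusted p = 0.0431). Leaving out interimplantation array 1 gave a difference of 0.78 (adjusted p = 5.69e-04), while Mcm5 did not pass when any other single array was left out (adjusted p between 0.118 and 0.177). Its signal lay below 5.79, the mean of the brightest Bacillus control, on every array.

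Mcm3 read 5.76, 5.03 and 5.27 at the implantation site and 4.57, 4.82 and 4.97 between the sites. The groups did not overlap, but the implantation arrays spread widely (SD 0.37), and the difference of 0.57 did not pass (adjusted p = 0.110). A dimmer probe set of Mcm3 with nearly the same difference (0.57, SE 0.11) did pass (adjusted p = 0.0198), and the other 3 ran from −0.08 to −0.04. The remaining ring subunits were closer to 0, at 0.14 for Mcm2, 0.12 for Mcm4 and −0.04 for Mcm6. The 95% interval of Mcm6, −0.22 to 0.14, lay below that of Mcm7, 0.69 to 1.16, on the scale of differences. Whether the subunits of the ring differed from each other was not tested. Of the factors that join the ring, Gins1 of the GINS complex read 5.68, 5.85 and 6.34 at the implantation site and 5.66, 5.50 and 5.46 between the sites. Implantation array 3 was the highest by a wide margin, array 1 lay barely above interimplantation array 1, and the difference of 0.42 did not pass (adjusted p = 0.187). The helicase activators Mcm10 (0.11) and Cdc45 (0.09) did not pass, though the groups of Mcm10 did not overlap. The other probe set of Mcm10 was at 0.003, with overlap.

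Among the sliding clamp and its loader, 1 of 6 genes rose. Pcna, the clamp that keeps the polymerases on DNA, read 6.50, 6.49 and 6.70 at the implantation site and 5.75, 5.92 and 5.61 between the sites. It rose 1.74-fold, from 5.76 ± 0.15 to 6.56 ± 0.12 (SD, n = 3), by 0.80 (SE 0.10, adjusted p = 0.00179). Pcna had 1 probe set. The loader places the clamp at primed DNA, and of its genes Rfc3 read 4.46, 4.33 and 4.57 at the implantation site and 4.10, 4.10 and 4.05 between the sites. The groups of Rfc3 were apart and tight, and the difference of 0.37 lay just outside the threshold (adjusted p = 0.0509). Its other probe set was at −0.05. The groups of Rfc2 did not overlap either (0.20, adjusted p = 0.307). Rfc1, the large subunit, and Rfc5 were at −0.10 and −0.11, with interimplantation array 1 the highest for Rfc5 (5.43), and Rfc4 was at 0.03.

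**Figure D2:**
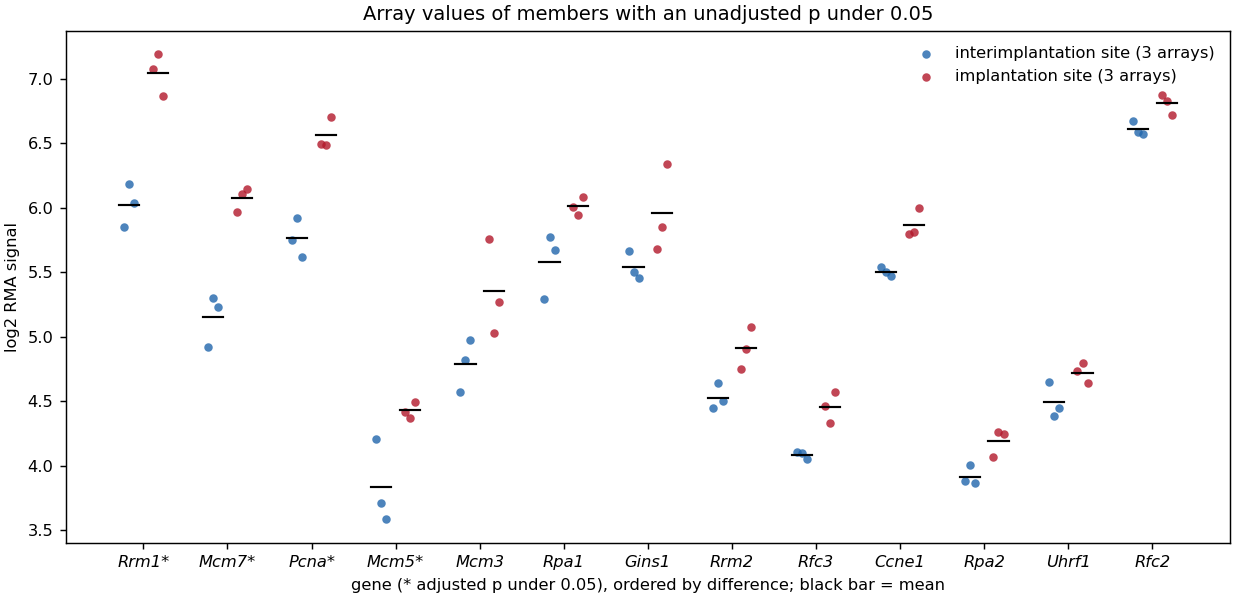
Log2 RMA signal (vertical axis) on each of the 3 interimplantation (blue) and 3 implantation (red) arrays for the 13 genes with an unadjusted p under 0.05, with the mean as a black bar and an asterisk on the 4 that passed. The groups are apart in all 13 but Uhrf1, and single arrays stand out for Mcm5 (interimplantation array 1 at 4.21), Mcm3 (implantation array 1 at 5.76) and Gins1 (implantation array 3 at 6.34).

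None of the 6 genes of origin licensing passed in either direction, and none had an unadjusted p under 0.05. The subunits of the origin recognition complex Orc1, Orc2 and Orc6 were at 0.06, −0.13 and −0.05. The loading factors Cdc6 and Cdt1 were at 0.07 and −0.02, and Gmnn, which encodes geminin, the inhibitor of Cdt1, was at 0.08. The mean signal of Cdc6, 2.53, lay below the median of the Bacillus controls (2.68), so its difference says little. Orc1 and Gmnn were also dim, both with a mean signal of 3.32. Orc2 read 5.70, 5.81 and 5.63 at the implantation site and 5.84, 5.83 and 5.88 between the sites, so the implantation values were the lower ones by a small margin. Cdt1 varied more within a group than between the groups, with interimplantation array 2 at 5.39 and the other two at 4.82 and 4.78. The median of the licensing genes was 0.02, that of the helicase genes 0.14, and the difference between these medians was not tested.

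None of the 8 genes of the polymerases and primase passed or had an unadjusted p under 0.05, although 7 were positive, with a median of 0.17 and a range of −0.10 to 0.19. Differences of the DNA polymerase alpha genes Pola1 and Pola2, which start each new strand with the primase, were 0.06 and 0.18. Those of Pold1 and Pold2, of polymerase delta, which extends the lagging strand, were 0.16 and 0.19. The other probe set of Pold1 was at −0.20, and the mean over both gave −0.02. Pole and Pole2, of the leading strand polymerase epsilon, were at 0.17 and 0.19. The primase subunits Prim1 and Prim2, which make the RNA primers, were at 0.02 and −0.10. The other probe set of Prim1 was at 0.27 with no overlap and an unadjusted p under 0.05, but did not pass (adjusted p = 0.205). That of Prim2 was at −0.15. The upper 95% bounds of these 8 differences ran from 0.09 (Prim2) to 0.47 (Pole). The difference of Pcna was 0.80, with a 95% interval of 0.58 to 1.02. Whether these genes differed from Pcna was not tested.

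Replication protein A covers single-stranded DNA at the fork. Its large subunit Rpa1 read 6.01, 5.94 and 6.08 at the implantation site and 5.29, 5.78 and 5.67 between the sites. The groups did not overlap, interimplantation array 1 was the lowest, and the difference of 0.43 did not pass (adjusted p = 0.0881). This probe set is marked as shared, which can mean several transcripts or several genes, and the other, dimmer one was at −0.15. Rpa2, the middle subunit, was at 0.28 with no overlap (adjusted p = 0.155), and Rpa3, the small one, at −0.05. The other probe set of Rpa2 was at 0.03, with overlap. On the lagging strand, the flap nuclease Fen1 and the ligase Lig1, which finish Okazaki fragments, were at −0.04 and 0.14. The 95% interval of Fen1 ran from −0.23 to 0.16. The probe set of Fen1 is also marked as shared, with a mean signal of 7.97. Its other probe set had a mean signal of only 2.80 and was at 0.10.

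Ccne1, one of the E cyclins that start S phase with Cdk2, read 5.80, 5.81 and 5.995 at the implantation site and 5.54, 5.50 and 5.47 between the sites. The interimplantation values were nearly alike and all lower, and the difference of 0.36 lay just outside the threshold (adjusted p = 0.0509). With a trended and robust variance it lay just inside (adjusted p = 0.0498). Array weights, the mean over probe sets and repeated quantile normalization also gave a call (adjusted p = 0.0309, 0.0381 and 0.0338). Ccne1 had 1 probe set, so averaging left its values unchanged while fewer features were tested. It was called in 6 of 14 alternatives, with adjusted p up to 0.210. With the replicate number as a block Ccne1 did not pass (adjusted p = 0.0761). Ccne2, the other E cyclin, was at 0.11 and E2f1, an activator of S phase genes, at 0.16, with a second probe set of E2f1 at −0.18. At the fork, Uhrf1, which recognises half-methylated DNA and recruits the maintenance methyltransferase, was at 0.23 (adjusted p = 0.292). That methyltransferase, Dnmt1, was at −0.05, and Chaf1b, a subunit of the histone chaperone CAF-1, at 0.16. The repair genes Ung, a glycosylase that removes uracil from DNA, and Msh6, of mismatch recognition, were at 0.03 and −0.03. The mean signal of Ccne2 (2.46) lay below the median of the Bacillus controls (2.68), and that of Msh6 (2.73) just above it.

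The arrays did not carry the high and low values evenly. The highest value of a gene lay most often on implantation array 3 (15 of 47 genes) and array 2 (12 genes), and least often on interimplantation array 3 (2 genes). The lowest lay most often on interimplantation array 3 (17 genes). Such counts were not made over all genes, and the list was made with this contrast known, so nothing is read from them. The mean over the 47 genes was 4.81, 4.82 and 4.86 on the implantation arrays and 4.67, 4.69 and 4.63 on the interimplantation arrays, while the mean over all genes was 4.97 to 4.99 and 4.98 to 5.00.

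Of the measured genes, 25 had further probe sets, 35 in all, whose values the choice of the brightest one did not use. They came from the same RNA and arrays. Of these 35, 17 were positive and 18 negative, with a median of −0.02, 1 was higher by the test (Mcm3) and 0 lower. At their mean level none of the 35 lay above the brightest Bacillus control. For 12 of the 25 genes no other probe set shared the sign of the brightest: Mcm4, Mcm6, Pold1, Rfc1, Rfc3, Rfc4, Rpa1, Fen1, Rrm2, Dut, Dnmt1 and E2f1. The brightest probe set of Dut exceeded the next by only 3.13e-04 (3.714 against 3.7137), and that one was at 0.13, so the sign given for Dut depends on the choice.

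**Figure D3:**
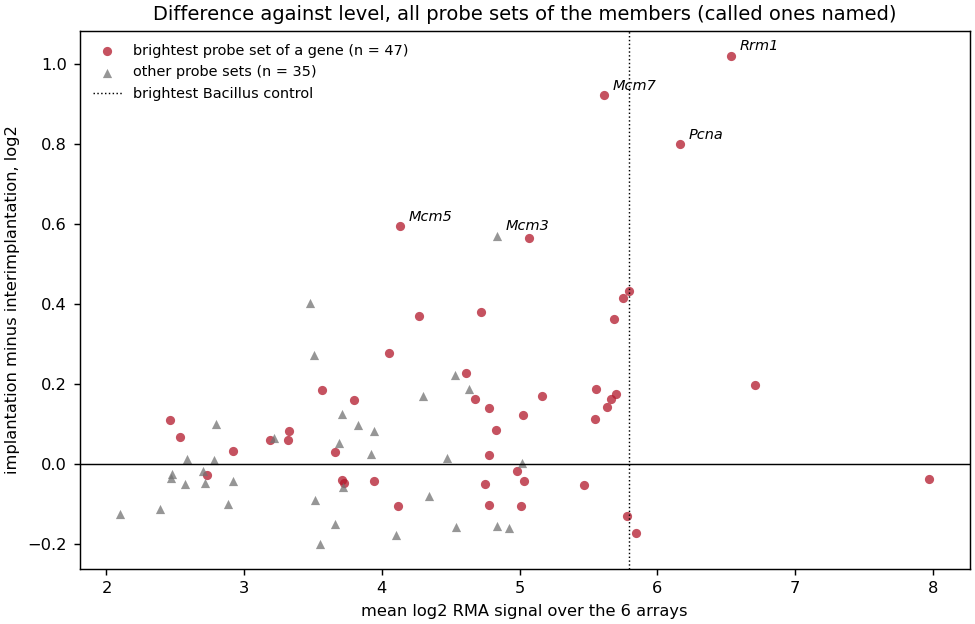
Difference between the sites (vertical axis, log2) against the mean signal over 6 arrays (horizontal axis, log2) for the 47 brightest (red circles) and the 35 other probe sets (grey triangles) of the members, with the names of the called ones. All 35 other probe sets lie left of the brightest Bacillus control (dotted line at 5.79), and 1 of them, of Mcm3, was called.

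A further 118 genes of the pathway were chosen from their known roles, but also with earlier results of these data known. Of these, 95 were measured, 4 rose and 0 fell (20 higher and 7 lower by unadjusted p). Among all genes 1.36% rose and 1.18% fell (6.14% and 8.67% by unadjusted p). The same shares stand beside the lists that follow, and nothing is read from the counts. Leaving aside mitosis genes, 1 of 76 rose, with a median of 0.01. That gene was E2f8, an atypical E2F that represses S phase genes. It read 6.39, 6.43 and 6.69 at the implantation site and 5.95, 5.74 and 5.46 between the sites, a rise of 0.79 (SE 0.13, adjusted p = 0.00600). All implantation values of E2f8 were clearly the higher ones, and it was called in all 15 alternatives. The alternative without the dimmer probe sets, those not above the brightest Bacillus control, adds no support for E2f8. E2f8 passed that filter only through the implantation arrays, with a mean of 6.50 there and 5.72 between the sites. Tfdp1, which pairs with the typical E2Fs to bind DNA, was at 0.31 (adjusted p = 0.127).

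Of 26 other replisome and origin genes none passed (2 higher and 2 lower by unadjusted p). The topoisomerase Top1, which relieves twist ahead of the fork, was at 0.39 (adjusted p = 0.0803), and Pold4, the smallest subunit of polymerase delta, at −0.37 (adjusted p = 0.0545). Scaling to the hybridisation controls turned Pold4 to 0.03. None of 12 other nucleotide supply genes passed (3 higher and 1 lower unadjusted), with the nucleoside diphosphate kinase Nme2 at 0.39 (adjusted p = 0.0567) and Dctpp1, which degrades faulty deoxycytidine triphosphates, at 0.29 (adjusted p = 0.119). Of 11 genes of histone chaperones and histone mRNA none passed (2 higher and 1 lower unadjusted), with the chaperones Asf1a at 0.44 (adjusted p = 0.0693) and Nasp at 0.27 (adjusted p = 0.201). Of 13 genes of the replication checkpoint and recombination none passed (3 higher and 2 lower unadjusted), with Parp1, which senses DNA breaks, at 0.38 (adjusted p = 0.0537) and the helicase Blm at 0.30 (adjusted p = 0.137). The groups did not overlap for any of Top1, Pold4, Nme2, Dctpp1, Asf1a, Nasp, Parp1 and Blm. The other probe sets of Parp1 were at −0.08 and 0.11, that of Asf1a at 0.10 and that of Nasp at 0.13, all with overlap.

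Of 19 mitosis genes 3 rose and 0 fell (7 higher and 0 lower by unadjusted p), with 17 positive and a median of 0.08. Among all genes 1.36% rose and 1.18% fell (6.14% and 8.67% by unadjusted p), and 43.8% were positive. Cks2, which binds cyclin-dependent kinases, rose by 1.09 (adjusted p = 1.43e-04), and its second probe set also rose (0.45, adjusted p = 0.0171). Ube2c, a ubiquitin-conjugating enzyme of mitotic exit, rose by 0.99 (adjusted p = 0.00441), and the mitotic kinase Cdk1 by 0.54 (adjusted p = 0.0174). With the level of the hybridisation controls as a covariate neither Ube2c (adjusted p = 0.125) nor Cdk1 (adjusted p = 0.161) passed. Leaving out implantation array 1, implantation array 3 or interimplantation array 3 also ended the call of Cdk1, at 0.47, 0.53 and 0.56 (adjusted p = 0.111, 0.0937 and 0.0519). The division markers Mki67 and Top2a were at 0.02 and 0.03.

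Other measured quantities differed between the same arrays. The 18 hybridisation control probe sets averaged 6.70, 6.45 and 6.77 on the implantation arrays and 7.27, 6.75 and 7.08 on the interimplantation arrays, so the groups overlapped. Scaling to them raised every difference by 0.40: all 47 members were then positive, as were 12205 of the 12393 genes, the median of all genes became 0.38, and 10 members were higher by the test, as were 450 of all genes, while 8 of all genes were lower (169 and 146 without the scaling). Directions in the deposited values are thus relative to the bulk of the genes. With the control level as a covariate, Rrm1, Mcm7, Pcna and Mcm5 were called (0.75, 0.73, 0.75 and 0.86; adjusted p = 0.0203, 0.0403, 0.0454 and 0.0499).

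Among the cell type markers, only those of epithelium and smooth muscle held called genes, while 1.18% of all genes fell. Positive differences were seen for 1 of 13 epithelial and 2 of 9 smooth muscle markers. Of 13 epithelial markers 4 fell and 0 rose (median −0.22, turned to 0.18 by scaling to the controls), and their mean was 5.11 to 5.23 at the implantation site and 5.53 to 5.65 between the sites. Of 9 smooth muscle markers 2 fell and 0 rose (median −0.25, turned to 0.15 by that scaling), with a mean of 5.41 to 5.67 against 5.91 to 6.18. The endothelial (7), leukocyte (10) and erythroid (4) markers held no called gene, with medians of −0.06, −0.02 and −0.03 (0.34, 0.38 and 0.37 with that scaling). Of 9 markers of trophoblast and embryo none passed in either direction, also at an unadjusted p under 0.05, and their mean was 4.30 to 4.37 against 4.35 to 4.48. Cdx2, Pou5f1 and Nanog, which define early embryonic cells, were at 0.11, −0.08 and −0.04, and 1 of the 9, Hand1, lay above the brightest Bacillus control, at 6.81 in both groups. The part of these markers in the differences of the replication genes was not tested.

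**Figure D4:**
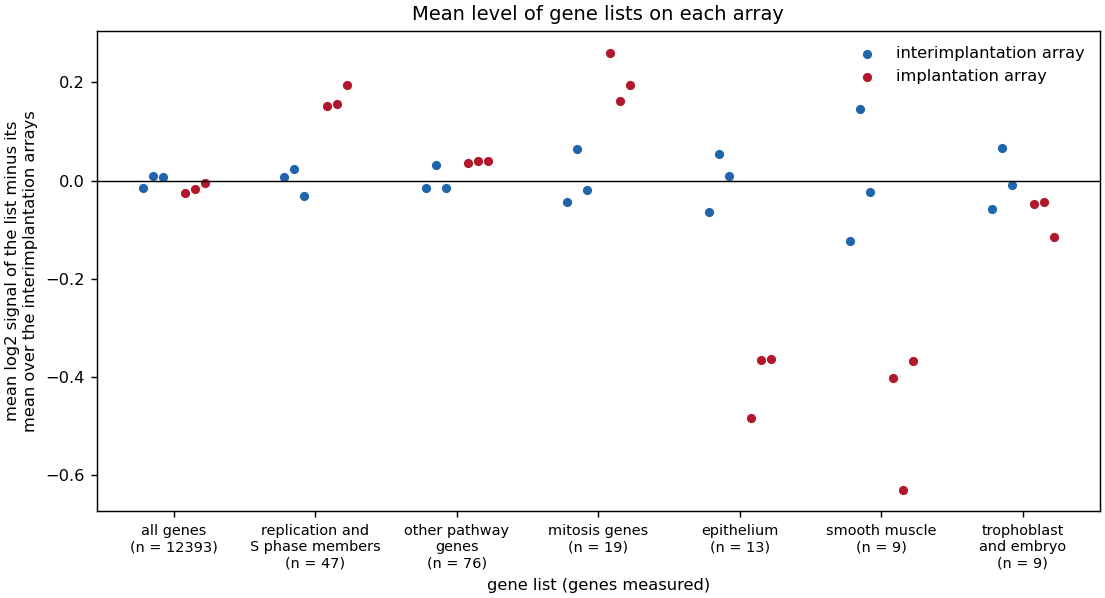
Mean log2 signal of each gene list on each array, less its mean over the interimplantation arrays (vertical axis), for implantation (red) and interimplantation (blue) arrays. The 47 replication genes and the 19 mitosis genes lie higher on all 3 implantation arrays, the epithelial and smooth muscle markers lie lower, and all genes and the 76 other pathway genes lie close to 0.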

How the data were processed

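RNA of 6 uterine samples, 3 per group, was hybridised to an Affymetrix mouse array. The deposited values are on a log2 scale and came from the authors; RMA and Partek 6.6 are named, without their roles, in the submitters' processing notes. The log base is not given there, and base 2 rests on the range of the values. Scan dates and batches are not given in the sources used here. Of 22690 probe sets, 64 controls were left out. Of the 22626 tested, 20380 had 1 gene symbol in the platform annotation, 691 several and 1555 none. All 47 measured members were also symbols of the hamster RefSeq annotation (BCM_Maur_2.0). No sequence was used.

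The groups were compared with limma 3.58.1 in R 4.3.3 (lmFit and eBayes, group as the only term, two-sided), with Benjamini-Hochberg adjustment over all 22626 probe sets. All adjusted p-values rest on p-values from limma. In alternatives that tested fewer features, the adjustment ran over those features only. The calculation was tested on simulated data. The brightest probe set stood for a gene. Every member is named. All array values are given for called members and for differences of at least 0.5. Those of other members were added after their values were seen. Of each list of other pathway genes, the called ones and the 2 with the smallest p are named, and also Mki67 and Top2a. The members and lists were chosen with earlier results of these data known. P-values measure the spread between 3 samples per group, and that number limits their precision.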

Additional observations from a re-analysis of the deposited data

How the results depend on the processing

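Of the 15 alternatives, all left 0 members lower. The count of higher members, 4 with all arrays, fell to 2 of 41 without probe sets whose ID marks shared probes, which removes every probe set of Mcm7 (Mcm5 then had an adjusted p of 0.0502), and became 10 with scaling to the hybridisation controls, where 450 of all genes were higher and 8 lower, against 169 and 146. It was 3 to 5 when each array was left out in turn. The median difference of 0.11 became 0.32 over the 6 members left without the dimmer probe sets, a larger value that follows in part from the filter, since Pcna and Rpa1 pass it only through their implantation arrays, and 0.51 with the scaling, where the median of all genes was 0.38. Rrm1 and Pcna were called in all 15 alternatives (adjusted p up to 0.0203 and 0.0454) and Mcm7 in the 13 that measured it. For Pcna the alternative without the dimmer probe sets adds no support, since its filter was passed only through the implantation arrays. Mcm5 was called in 7 of 14 and also lost its call when probe sets of a gene were averaged (adjusted p = 0.0584), where fewer features are tested. Rfc3 was called in 3 of 14 alternatives, Ccne1 in 6 of 14 and Rpa1 in 2 of 15. Rpa1 was called with the scaling and without the dimmer probe sets, the filter it passes only through its implantation arrays. With the replicate number as a block the same 4 genes were called (Rrm1, Mcm7, Pcna and Mcm5) and the median was 0.11. The deviations of same-numbered arrays from their group means correlated at −0.09, 0.07 and −0.03, and 1 of 3 implantation arrays correlated best with its own number, so the numbers are not shown to pair the samples. No called value changed sign. The number of arrays and the low signal of 41 of the 47 members limit what could be detected.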
